A study of Homo sapiens with 6 samples.

Results

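The genes described here form the extracellular and membrane part of the Wnt pathway: the WNT ligands, the proteins that export them, the Frizzled, ROR and RYK receptors, and the secreted proteins that dampen or strengthen the signal. They were taken by name, as every probe set whose single gene symbol was one of 44 listed genes, and 43 of the 44 were measured, each by 1 probe set, out of 18404 genes and 32321 probe sets on the array. PORCN, the acyltransferase that adds the lipid to WNT proteins, was not analysed here. The study asked which genes change in DLD-1, a cell line from a human colorectal cancer in which APC is mutated, when DKK1 is induced. DLD-1/DKK1 cells carried a lentiviral vector from which doxycycline induces DKK1, a secreted Wnt inhibitor, with a V5 tag, and DLD-1/Mock cells carried the Mock vector. The vectors also encode the green fluorescent protein, by which most transduced cells were positive, and no cloning of the cells is described. Both groups had received doxycycline, given as 10 mg/ml in the labels and as micrograms in the methods, for a day. RNA of 3 dishes per group, said by the methods to be independent, was hybridised to 6 arrays, 1 per dish, and p-values therefore measure the spread between dishes.

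A WNT protein is lipid-modified in the secreting cell, escorted to the surface by WLS, and binds a Frizzled receptor together with LRP5 or LRP6 to stabilise beta-catenin, or with ROR or RYK receptors to act without it. Secreted Frizzled-related proteins and WIF1 capture WNT ligands outside the cell, whereas R-spondins bind LGR receptors and spare Frizzled from the ubiquitin ligases ZNRF3 and RNF43. In the gut this system maintains the crypt stem cells, and much of the ligand and R-spondin supply comes from stromal cells. In cells without functional APC, beta-catenin is stable without a ligand. DKK1 itself binds LRP5 and LRP6.

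The arrays matched their labels. DKK1 had log2 values of 12.30, 12.38 and 12.36 in DLD-1/DKK1 and of 5.15, 5.74 and 5.01 in DLD-1/Mock. Of all 32321 probe sets, 28 (0.0866%) had an adjusted p under 0.05 with limma, and 9.23% an unadjusted p under 0.05. Mock 2 was the least similar array, correlating at 0.9953 to 0.9969 with its companions, against at least 0.9973 for every other pair. Of 8 markers of colorectal epithelium, EPCAM, CDH1, KRT8, KRT18, CDX2 and VIL1 lay between 9.80 and 12.96 on the log2 scale in all 6 arrays, whereas KRT20 lay between 5.50 and 5.67 and CEACAM5 between 6.19 and 6.45. Of the 8, CEACAM5 alone had an unadjusted p under 0.05, with a log2 fold change of -0.14 (limma unadjusted p = 0.0487). Without overlap, KRT8 (-0.11) and KRT18 (-0.08) lay lower in DLD-1/DKK1, as did 8.55% of all probe sets. VIL1 (0.11) lay higher without overlap, as did 7.91%. The 3 leukocyte markers had a summed level, on the log2 scale, of 6.98 to 7.02 in DLD-1/DKK1 and of 7.07 to 7.26 in DLD-1/Mock, with 1 of the 3, CD14, at an unadjusted p under 0.05, and the pan-leukocyte marker PTPRC lay between 4.29 and 4.40. CD14 alone of these 3 lay lower in DLD-1/DKK1 without overlap, at a log2 fold change of -0.27, whereas PTPRC and CD3E overlapped between the groups. Of the 3, 0 lay in every array above the olfactory receptor boundary described below. The part of these markers in the members' values was not tested.

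To see which members stood clear of the dim end of the scale, their values were set against genes that most cells outside the nose do not express. The 95th percentile of 350 olfactory receptor probe sets was 6.05, and 30 of the 43 members lay above it in all 6 arrays, against 57.6% of all probe sets. This boundary depends on the silent family that sets it. With the keratin-associated proteins of hair, a family of 70 probe sets chosen after the data were seen, the 95th percentile was 8.71, and 4 members remained above it in every array, namely RYK, WLS, ROR1 and FZD6, against 27.7% of all probe sets. FZD3 had arrays on both sides of that line. Between these boundaries a value does not show that the gene was expressed, and the collagen gene COL1A1 of fibroblasts also lay there, at 7.34 to 7.74. The brightness of a probe set also depends on its probes, so the values of different genes are not compared as amounts of RNA.

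**Figure D1:**
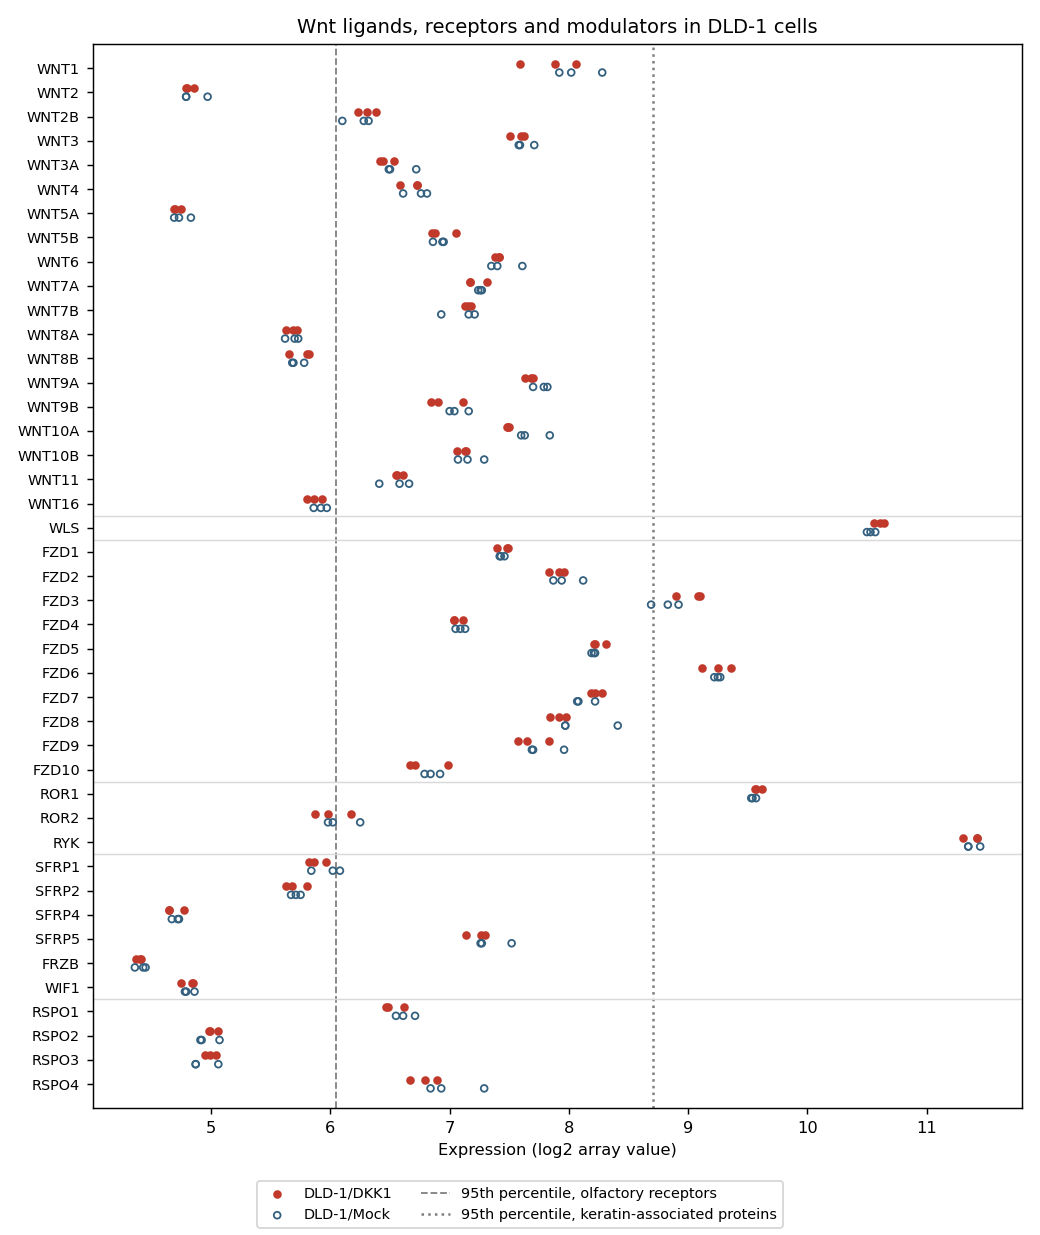
Log2 array value (horizontal axis) of the 43 measured members (rows, grouped by role), with filled points for the 3 DLD-1/DKK1 arrays above open points for the 3 DLD-1/Mock arrays. The dashed and dotted lines mark the 95th percentiles of olfactory receptors (6.05) and keratin-associated proteins (8.71), and RYK, WLS, ROR1 and FZD6 lie to the right of both in every array.

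What the members share in sequence was looked up in promoter windows of RefSeq (GRCh38.p14), which run from 250 bases before to 50 bases after a start site. Windows were given for 33 of the 43 measured members, 37 windows in all. Their median content of CG dinucleotides was 29, against 14 over all 35116 windows, and 32 of the 37 were above that median. The motif TCAAAG, the core that TCF and LEF factors bind, read on both strands (TCAAAG or CTTTGA), was in 0 of the 37 windows and in 12.9% of all windows, which says only that these letters are not in these windows. The 37 windows held 4 to 53 CG, and 3 of them are printed as examples with every CG in capitals. They are the window of RYK, which stood clear of both boundaries (chr3:134250810-134251109, minus strand, 43 CG), that of WNT10A, the member whose groups did not overlap (chr2:218880602-218880901, plus strand, 30 CG), and that of WNT8B, a dim ligand that had the fewest, together with WNT8A (chr10:100462759-100463058, plus strand, 4 CG).
RYK: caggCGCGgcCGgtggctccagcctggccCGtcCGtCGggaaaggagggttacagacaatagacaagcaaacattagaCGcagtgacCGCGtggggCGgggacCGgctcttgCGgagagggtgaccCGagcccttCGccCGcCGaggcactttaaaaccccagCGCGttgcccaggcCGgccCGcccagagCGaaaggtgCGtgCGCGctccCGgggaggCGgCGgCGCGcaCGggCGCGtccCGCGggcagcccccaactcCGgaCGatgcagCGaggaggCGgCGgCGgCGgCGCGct
WNT10A: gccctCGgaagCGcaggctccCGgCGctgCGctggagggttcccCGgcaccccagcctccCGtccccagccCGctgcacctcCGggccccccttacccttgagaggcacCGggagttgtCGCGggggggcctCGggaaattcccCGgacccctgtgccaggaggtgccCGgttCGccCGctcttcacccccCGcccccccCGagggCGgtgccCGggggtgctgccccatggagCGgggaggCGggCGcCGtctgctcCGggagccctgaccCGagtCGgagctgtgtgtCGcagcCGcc
WNT8B: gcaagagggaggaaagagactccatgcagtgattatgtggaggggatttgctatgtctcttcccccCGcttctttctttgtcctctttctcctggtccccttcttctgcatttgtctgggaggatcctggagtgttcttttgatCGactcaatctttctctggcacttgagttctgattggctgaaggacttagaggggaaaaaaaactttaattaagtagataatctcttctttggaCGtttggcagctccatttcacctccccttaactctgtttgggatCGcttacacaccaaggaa

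The 4 members clear of both boundaries had similar values with and without DKK1. RYK, an atypical receptor kinase that binds WNT through a WIF domain and whose CG-rich window is printed with the sequences, had 11.42, 11.42 and 11.31 in DLD-1/DKK1, against 11.35, 11.35 and 11.45 in DLD-1/Mock. WLS, the carrier that brings WNT from the Golgi to the cell surface, had 10.61, 10.64 and 10.56 in DLD-1/DKK1, against 10.53, 10.57 and 10.50 in DLD-1/Mock. The arrays of the 2 groups overlapped for both genes, for WLS by a narrow margin. The log2 fold change of RYK was 0.00 (95% interval -0.12 to 0.13), and that of WLS was 0.07 (-0.03 to 0.17). For ROR1, a receptor of WNT5A, the values were 9.57, 9.62 and 9.56 in DLD-1/DKK1 and 9.53, 9.54 and 9.57 in DLD-1/Mock. FZD6, a Frizzled that orients hair in the mouse, had 9.25, 9.36 and 9.12 in DLD-1/DKK1 and 9.27, 9.25 and 9.22 in DLD-1/Mock. Neither gene separated the groups, since ROR1 had a log2 fold change of 0.04 (95% interval -0.06 to 0.13) and FZD6 one of -0.00 (-0.16 to 0.16). Over these 4 genes the intervals ran from -0.16 to 0.17 on the log2 scale, so they leave room for differences of up to 12.6% upward, for WLS, and 10.4% downward, for FZD6.

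None of the 43 members had an adjusted p under 0.05 with limma, against 0.0866% of all probe sets, and the smallest adjusted p among them was 0.502. At an unadjusted p under 0.05, 1 member was higher in DLD-1/DKK1, against 4.02% of all probe sets, and 1 was lower, against 5.21%. The members passed at this level in 4.65% of cases, beside 9.23% of the whole array. With so few genes passing, this gap is not read as a result about the members. The log2 fold changes of the members lay between -0.24 and 0.21, with a median of -0.034, while the median of all probe sets was -0.006. In no member did all DLD-1/DKK1 arrays lie above all DLD-1/Mock arrays, which 7.91% of all probe sets showed, and in 1 member, WNT10A, they all lay below, as in 8.55% of all probe sets. Differences within the intervals could have been missed with 3 arrays per group. Larger ones could have been missed after adjustment too, as the members with an unadjusted p under 0.05 did not pass it.

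**Figure D2:**
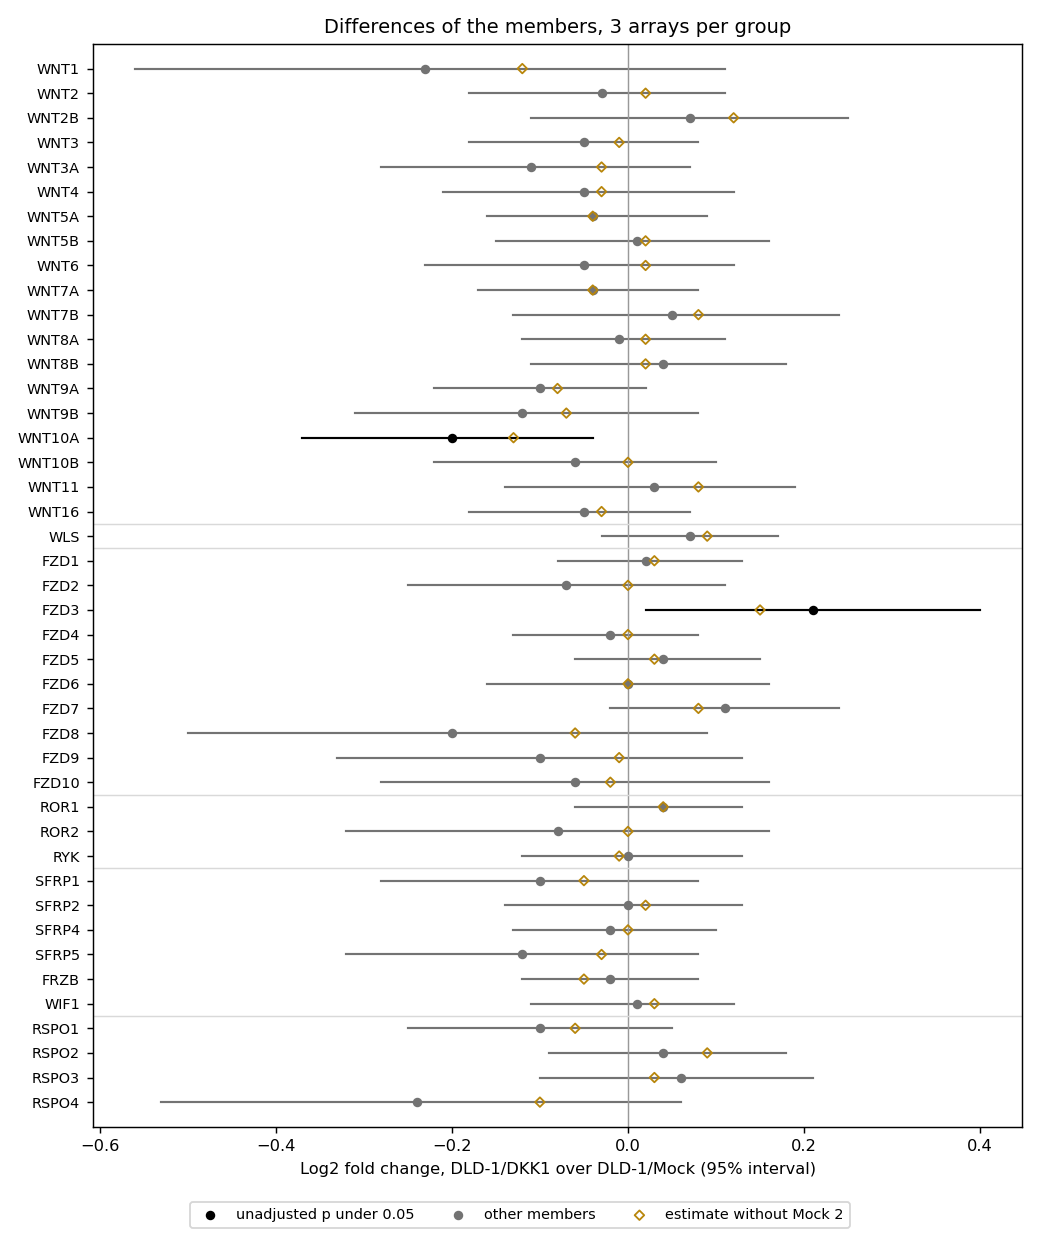
Log2 difference (horizontal axis, DLD-1/DKK1 minus DLD-1/Mock) of the 43 measured members, with points for the limma estimate, lines for its 95% interval, 3 arrays per group, and diamonds for the estimate without Mock 2. The interval leaves out 0 for WNT10A (-0.20) and FZD3 (0.21), which are drawn in black.

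The lower member was WNT10A, a ligand needed for teeth and other ectodermal appendages in humans. Its values were 7.49, 7.48 and 7.50 in DLD-1/DKK1, against 7.63, 7.84 and 7.60 in DLD-1/Mock. The groups did not overlap, and Mock 2 lay furthest away. All WNT10A values lay between the olfactory receptor and keratin-associated boundaries, where a value does not show that the gene was expressed. The means were 7.49 ± 0.01 in DLD-1/DKK1 and 7.69 ± 0.13 in DLD-1/Mock (SD, n = 3 each), and their log2 difference was -0.20 (95% interval -0.37 to -0.04). The limma p was 0.0244 before and 0.502 after adjustment over all probe sets, and the exact permutation p (two-sided) was 0.1, the smallest p that 3 arrays against 3 allow. Without Mock 2 the log2 fold change was -0.13 (limma unadjusted p = 0.0201), and without any one of the DLD-1/DKK1 arrays the unadjusted p was 0.0512 to 0.0638. WNT6, whose gene model overlaps the start of the WNT10A gene model in RefSeq on chromosome 2, had 7.38, 7.41 and 7.41 in DLD-1/DKK1, against 7.40, 7.61 and 7.35 in DLD-1/Mock, so that its groups overlapped and its log2 fold change was -0.05 (95% interval -0.23 to 0.12). Whether the difference between these neighbours exceeds the spread was not tested.

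The higher member was FZD3, a Frizzled that guides axons in the mouse. It had 9.08, 9.10 and 8.90 in DLD-1/DKK1, against 8.83, 8.69 and 8.92 in DLD-1/Mock. The groups overlapped, because DKK1 3 lay just below Mock 3. The log2 difference was 0.21 (95% interval 0.02 to 0.40, limma p = 0.0374 before and 0.524 after adjustment, exact permutation p = 0.2, two-sided). It was 0.15 without Mock 2, with an unadjusted limma p of 0.103. The unadjusted p was also above 0.05 without Mock 1 (0.0711), DKK1 1 (0.108) or DKK1 2 (0.113).

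Among the 19 WNT ligands, 14 had a log2 fold change below 0 and 5 above, with a median of -0.047. Of the 19, 12 were highest in Mock 2, and without that array 10 were below 0 and 9 above, with a median of -0.011. WNT1, the founding member of the family, had 7.59, 7.88 and 8.06 in DLD-1/DKK1, against 8.02, 8.28 and 7.92 in DLD-1/Mock. Its log2 fold change of -0.23 carried the widest interval of the ligands, from -0.56 to 0.11, and was -0.12 without Mock 2. WNT10B, its neighbour on chromosome 12, had 7.06, 7.13 and 7.14 in DLD-1/DKK1 and 7.15, 7.29 and 7.07 in DLD-1/Mock, a log2 fold change of -0.06 that became 0.00 without Mock 2. Both overlapped between the groups. WNT9A, which acts in joint formation in the mouse, had 7.70, 7.63 and 7.68 in DLD-1/DKK1, against 7.70, 7.82 and 7.79 in DLD-1/Mock, and WNT9B, an inducer of kidney tubules in the mouse, had 6.90, 6.84 and 7.11 in DLD-1/DKK1, against 7.00, 7.16 and 7.04 in DLD-1/Mock. Both overlapped, WNT9A only narrowly, at log2 fold changes of -0.10 for WNT9A (limma unadjusted p = 0.0792) and -0.12 for WNT9B (limma unadjusted p = 0.196).

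WNT3, a ligand of Paneth cells in the mouse crypt, had 7.62, 7.60 and 7.51 in DLD-1/DKK1 and 7.58, 7.71 and 7.59 in DLD-1/Mock. WNT3A, the usual ligand for activating beta-catenin in culture, had 6.42, 6.53 and 6.44 in DLD-1/DKK1 and 6.50, 6.72 and 6.49 in DLD-1/Mock. In both the highest array was Mock 2, and the groups overlapped. The values of WNT4, which acts in the female reproductive tract, were 6.58, 6.73 and 6.73 in DLD-1/DKK1 and 6.81, 6.76 and 6.61 in DLD-1/Mock. WNT7A had 7.17, 7.31 and 7.17 in DLD-1/DKK1 and 7.27, 7.26 and 7.24 in DLD-1/Mock, and WNT7B had 7.15, 7.18 and 7.13 in DLD-1/DKK1 and 7.21, 7.16 and 6.93 in DLD-1/Mock. WNT7A and WNT7B both serve the growth of brain vessels in the mouse, and neither separated the groups, with log2 fold changes of -0.04 and 0.05. WNT2B, a stromal ligand in the mouse gut, had 6.31, 6.23 and 6.38 in DLD-1/DKK1 and 6.28, 6.32 and 6.10 in DLD-1/Mock. WNT5B had 6.88, 7.05 and 6.85 in DLD-1/DKK1 and 6.95, 6.94 and 6.86 in DLD-1/Mock, and WNT11, a ligand of convergent extension in fish and frogs, had 6.55, 6.61 and 6.56 in DLD-1/DKK1 and 6.58, 6.66 and 6.41 in DLD-1/Mock. All 3 overlapped between the groups, with log2 fold changes of 0.01 to 0.07.

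The remaining 5 ligands, WNT2, WNT5A, WNT8A, WNT8B and WNT16, lay below the olfactory receptor boundary in all 6 arrays, with means over the arrays of 4.73 for WNT5A to 5.89 for WNT16. WNT5A is the best-known ligand of ROR1, whose own probe set lay clear of both boundaries. Their log2 fold changes ran from -0.05 (WNT16) to 0.04 (WNT8B). At this brightness a difference between the groups could have been missed.

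Of the 10 Frizzled receptors, 10 lay above the olfactory receptor boundary, and 4 had log2 fold changes above 0 and 6 below, with a median of -0.012. FZD7, the main Frizzled of intestinal stem cells in the mouse, had 8.19, 8.28 and 8.22 in DLD-1/DKK1, against 8.22, 8.07 and 8.08 in DLD-1/Mock. FZD5, which Paneth cells need to mature in the mouse, had 8.31, 8.22 and 8.21 in DLD-1/DKK1, against 8.21, 8.19 and 8.22 in DLD-1/Mock. Both overlapped, FZD7 with a log2 fold change of 0.11 (95% interval -0.02 to 0.24) and FZD5 with 0.04 (-0.06 to 0.15). After centring each array on its median, FZD7 was among 3 members that were higher at an unadjusted p under 0.05, together with FZD3 and WLS, a setting that shifts every probe set upward alike by 0.052. FZD8 had 7.84, 7.92 and 7.98 in DLD-1/DKK1, against 7.97, 8.41 and 7.97 in DLD-1/Mock. Here Mock 2 alone lay apart, and the log2 fold change of -0.20 was -0.06 without it.

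The other Frizzled genes showed the same overlap. FZD1 had 7.49, 7.40 and 7.48 in DLD-1/DKK1 and 7.43, 7.46 and 7.42 in DLD-1/Mock, and its relative FZD2 had 7.83, 7.92 and 7.96 in DLD-1/DKK1 and 7.87, 8.12 and 7.94 in DLD-1/Mock. FZD4, which also serves as the receptor of Norrin in the retina, had 7.04, 7.04 and 7.11 in DLD-1/DKK1 and 7.05, 7.13 and 7.09 in DLD-1/Mock. Their log2 fold changes were 0.02, -0.07 and -0.02. FZD9 had 7.57, 7.65 and 7.83 in DLD-1/DKK1 and 7.70, 7.96 and 7.69 in DLD-1/Mock, and FZD10 had 6.67, 6.71 and 6.99 in DLD-1/DKK1 and 6.84, 6.92 and 6.79 in DLD-1/Mock. Both genes differed by no more than 0.10 between the group means, less than the SD of either group for FZD9.

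The secreted inhibitors lay mostly at the dim end. FRZB, SFRP2, SFRP4 and WIF1 were below the olfactory receptor boundary in all 6 arrays, and SFRP1, a gene that is often methylated in colorectal cancer, lay between 5.82 and 6.08, around the boundary. SFRP5 had 7.26, 7.14 and 7.30 in DLD-1/DKK1, against 7.26, 7.52 and 7.27 in DLD-1/Mock. Again Mock 2 was the highest array, and the log2 fold change of -0.12 was -0.03 without it. Over the 6 inhibitors, 1 log2 fold change was above 0 and 5 were below, between -0.12 and 0.01. ROR2, the other ROR receptor, lay around the boundary too, at 5.87, 5.98 and 6.17 in DLD-1/DKK1 and 6.02, 6.25 and 5.98 in DLD-1/Mock.

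Of the R-spondins, RSPO2 and RSPO3, which are fused to other genes in some colorectal cancers, lay between 4.87 and 5.07 in all 6 arrays. RSPO1 had 6.48, 6.47 and 6.62 in DLD-1/DKK1, against 6.61, 6.71 and 6.55 in DLD-1/Mock. RSPO4, which is needed for nails in humans, had 6.67, 6.79 and 6.89 in DLD-1/DKK1, against 6.93, 7.29 and 6.84 in DLD-1/Mock. Mock 2 was the highest array for both, and the log2 fold change of RSPO4, at -0.24 the lowest of the members (95% interval -0.53 to 0.06), was -0.10 without it. Markers of fibroblasts, a usual source of R-spondins and of secreted inhibitors in the gut, had a summed level of 9.11 to 9.20 on the log2 scale in DLD-1/DKK1 and of 9.15 to 9.35 in DLD-1/Mock. Of these 8 markers 0 had an unadjusted limma p under 0.05, DCN and LUM lay between 4.07 and 4.45, and 4 were above the olfactory receptor boundary in every array. COL3A1 alone of the 8 lay lower in DLD-1/DKK1 without overlap, at a log2 fold change of -0.15. The dishes were cultures of the DLD-1 line, and no fibroblasts are described in them. In RNA of whole dishes, fewer cells of a type and less RNA per cell cannot be told apart.

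Mock 2 was the highest of the 6 arrays for 23 of the 43 members (53.5%), against 28.7% of all probe sets and 38.3% of the olfactory receptors. Its values for the members lay at a median of 0.07 above the mean of the other arrays, while the corresponding medians of the others were between -0.042 and 0.008. Over all probe sets Mock 2 lay at a median of 0.007. The count of members below 0 moved with this array, since 28 were below and 15 above 0 with it, and 22 below and 21 above without it. With all 6 arrays, 17153 of all 32321 probe sets were below 0 and 15168 above. Of the 350 olfactory receptors, 231 were below and 119 above with Mock 2, and 188 below and 162 above without it. Centring each array on its median adds 0.052 to the log2 fold change of every probe set, so that 18 members were below 0 and 25 above, while the median of all probe sets became 0.046. The part of this array in the members' differences was therefore measured by leaving it out, and why it stood apart was not tested.

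**Figure D3:**
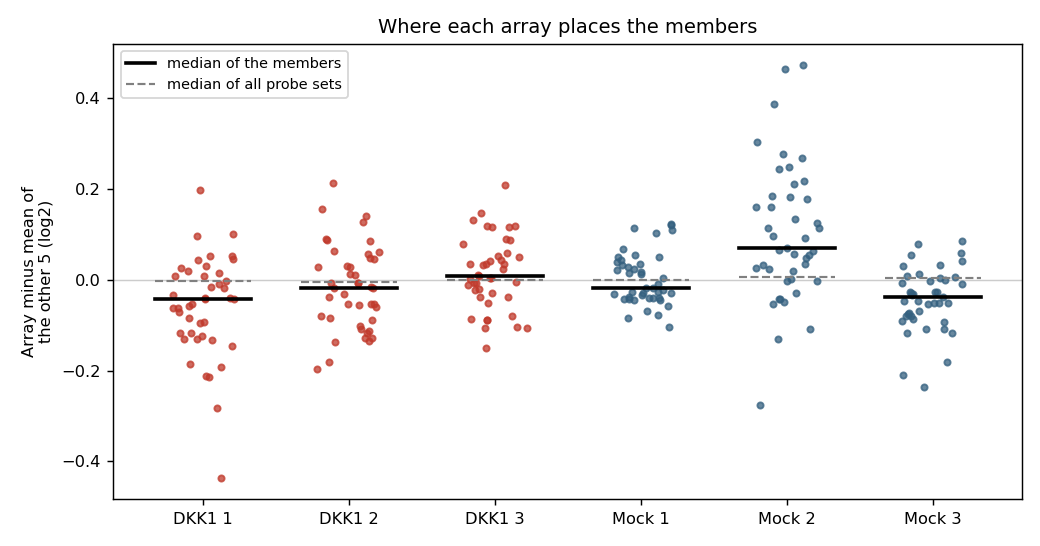
Difference of each array from the mean of the other 5 (vertical axis, log2) for the 43 measured members (points, red for DLD-1/DKK1 and blue for DLD-1/Mock arrays), with a solid bar for the median of the members and a dashed bar for the median of all probe sets. Mock 2 places the members at a median of 0.07, and the other 5 arrays between -0.042 and 0.008.

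Around the members, 24 further genes of the pathway were examined, a list of LGR receptors and their ligases, secreted inhibitors, cytoplasmic and planar polarity proteins and ligand sorting factors. Of these 24, 0 passed after adjustment with limma. At an unadjusted p under 0.05, 2 were higher and 2 lower (16.7%, against 9.23% of all probe sets), and their median log2 fold change was 0.00. All 24 lay above the olfactory receptor boundary in every array, against 57.6% of all probe sets. When only probe sets above the median brightness were tested, 12.6% passed, and of 21 context genes 2 were higher and 2 lower. The list was chosen with earlier results of these data known, so these shares do not test it. The counts of higher and lower genes moved with the setting, to 5 higher and 1 lower after median centring, 0 and 1 without DKK1 2, 0 and 2 without DKK1 3, 0 and 3 without Mock 2, 1 and 1 without Mock 1, and 2 and 1 without DKK1 1 or Mock 3. The R-spondin receptor and stem cell marker LGR5 had 12.13, 12.14 and 12.17 in DLD-1/DKK1, against 12.30, 12.22 and 12.33 in DLD-1/Mock, and LGR4, the more widely expressed receptor of the same ligands, had 8.24, 8.29 and 8.30 in DLD-1/DKK1, against 8.16, 8.07 and 8.20 in DLD-1/Mock. These receptors lay on opposite sides of 0, both without overlap, at log2 fold changes of -0.14 (95% interval -0.24 to -0.03, limma adjusted p = 0.482) and 0.13 (0.02 to 0.25, limma adjusted p = 0.512). After median centring LGR5 had -0.09 with an unadjusted limma p of 0.145. NOTUM, which removes the lipid from WNT, had 7.38, 7.35 and 7.43 in DLD-1/DKK1 and 7.57, 7.75 and 7.52 in DLD-1/Mock, and the planar polarity gene PRICKLE1 had 7.36, 7.40 and 7.43 in DLD-1/DKK1 and 7.25, 7.25 and 7.31 in DLD-1/Mock. Their log2 fold changes were -0.23 (limma adjusted p = 0.466) and 0.12 (limma adjusted p = 0.499), with no overlap between the groups. Without overlap, 3 of the 24 lay higher (against 7.91% of all probe sets) and 5 lower (against 8.55%). The others among these were PRICKLE2 (0.16), DVL1 (-0.09), DVL3 (-0.08) and VANGL2 (-0.17). NOTUM kept an unadjusted p under 0.05 whichever array was left out, at -0.16 without Mock 2 (limma unadjusted p = 0.0146). NOTUM, PRICKLE1 and LGR4 lay between the olfactory receptor and keratin-associated boundaries, where a value does not show that the gene was expressed. For LGR5 the unadjusted p was 0.0505 to 0.0566 without DKK1 1, DKK1 2, Mock 1 or Mock 3, and 0.00612 without Mock 2. For LGR4 it was 0.0522 to 0.0801 and for PRICKLE1 0.0505 to 0.0784 without DKK1 2, DKK1 3, Mock 1 or Mock 2. The ligases RNF43 and ZNRF3 had log2 fold changes of 0.04 and -0.01.

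**Figure D4:**
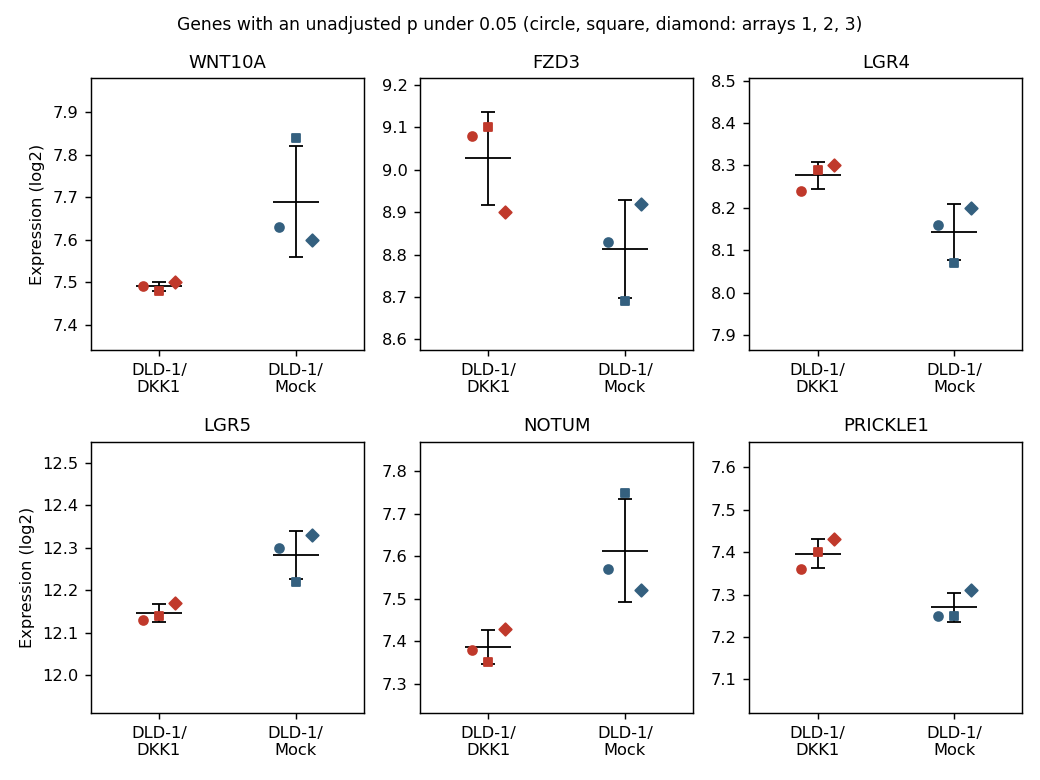
Log2 expression (vertical axes, each spanning the same range) of WNT10A, FZD3, LGR4, LGR5, NOTUM and PRICKLE1 in DLD-1/DKK1 (left) and DLD-1/Mock (right) arrays, with points for single arrays and bars for the mean ± SD (n = 3). FZD3 alone of the 6 has overlapping groups, and Mock 2 (square) is the highest array for WNT10A and NOTUM and the lowest for FZD3 and LGR4.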

How the data were processed

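The 6 arrays were Affymetrix Human Gene 1.0 ST arrays. The deposited log2 values had been made by the authors from the scanned arrays by robust multichip averaging (R, affy), which corrects the background, equalises the array distributions and summarises the probes of a probe set, so that shared shifts are removed and low values compressed. The genome build is not given in the sources used here. No further scaling was applied, and array medians lay between 6.76 and 6.86. Of 32321 probe sets, 19158 carried 1 symbol in the platform annotation, 1388 several and 11775 none, and genes were named from the first group after 19128 symbols had been matched by gene number to a current table (GRCh38.p14).

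Every probe set entered 1 linear model in limma 3.58.1 under R 4.3.3 (lmFit, then eBayes, default prior, 4 residual and 2.56 prior degrees of freedom) as DLD-1/DKK1 minus DLD-1/Mock, two-sided, with Benjamini-Hochberg adjustment over all of them, the tool and error control that the study's methods name. Intervals are at 95%. Single values were also given a two-sided exact permutation test over the 6 arrays. A member was above the dim end if every array exceeded the stated percentile. The fit was tried on simulated data with added changes larger than any difference of the members. That trial therefore does not show whether changes of the members' size would be found. Every listed member was to be named, with values per array for those above the dim end or with an unadjusted p under 0.05, and context genes at that p. The members and lists were chosen with earlier results of these data known. The alternatives tried were leaving out each array, a replicate block, array weights, a trended and robust prior, testing brighter or annotated probe sets alone, median centring, quantile normalisation and other dim ends. Figures were drawn with matplotlib 3.10.9.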

Additional observations from a re-analysis of the deposited data

How the results depend on the processing

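None of the members tested passed after adjustment in any of the 13 alternatives, which covered 43 members except above the median brightness, where 25 were tested and the smallest adjusted p of all settings, 0.333, arose. The highest olfactory receptor and the keratin-associated proteins as dim ends, both chosen with the data in view, each left 4 members above the dim end, with 26.5% and 27.7% of all probe sets. The 99th percentile of the olfactory receptors and the median of all probe sets each left 23, with 48.0% and 47.9%. At an unadjusted p under 0.05, 3 members were higher after median centring and 0 with the replicate number as a block, and leaving out 1 array gave 0 to 1 higher and 0 to 3 lower. Over all probe sets, 17 passed after median centring, 66 above the median brightness, 98 among annotated probe sets, 53 with a trended and robust prior, 59 with array weights, 1 with the replicate block, and 2 to 6 with 1 array left out. The replicate numbers did not pair the arrays, with correlations of same-numbered deviations of 0.105, 0.00821 and -0.137. Fewer arrays were fitted when 1 was left out, and the replicate block left fewer residual degrees of freedom than the main fit. The part of this in the counts, and the cause elsewhere, was not tested.

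Of 30 members tried singly, 18 kept their direction wherever they were run, and 12, none of which had passed, changed sign in at least 1 setting. Above the median brightness 5 of the 30 were not run, 3 of them among the 18. After quantile normalisation WNT4 had 0.007, FZD4 0.026 and RYK -0.017. Median centring shifts every probe set by 0.052, and 1 of the 12, WNT7A, changed sign by that alone. After it WNT4 had 0.006, WNT7A 0.01, FZD4 0.029 and FZD6 0.052. With 1 array left out, WNT4 ran from -0.104 to 0.002, WNT5B from -0.056 to 0.046, WNT6 from -0.106 to 0.024, WNT7B from -0.029 to 0.111, WNT10B from -0.113 to 0.00, WNT11 from -0.042 to 0.081, FZD2 from -0.122 to 0.001, FZD6 from -0.059 to 0.062, FZD10 from -0.158 to 0.006 and RYK from -0.015 to 0.04. As each measured member had 1 probe set, another choice of probe set was not run. Brightness limits what can be said of every member but RYK, WLS, ROR1 and FZD6, which were clear of both boundaries. Of the others, 13 lay below the olfactory receptor boundary on at least 1 array.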
